A study of Mus musculus with 4 samples.

Results

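The matrix metalloproteinases (MMPs), the ADAMTS proteinases and their tissue inhibitors (TIMPs) were followed in rib chondrocytes of 4 mouse genotypes at postnatal day 5. Members were taken by symbol, as every gene named Mmp, Adamts or Timp with a number that had a probe set of its own on the array. This gave 37 of the 18193 genes with such a probe set, namely 18 MMPs, 15 ADAMTS genes and 4 TIMPs, covered by 70 probe sets. Other MMP and ADAMTS genes were not analysed here.

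The genotypes were the double mutant (*Xbp1* KO *Matn3* MUT on the labels), the *Matn3* mutant (*Xbp1* WT *Matn3* MUT) and the XBP1 null (*Xbp1* KO), and the wild type (*Xbp1* WT) was the control. All mice were C57BL6/J. The *Matn3* MUT allele is a homozygous missense change in the gene for matrilin-3, a cartilage matrix protein, and models a human chondrodysplasia. In *Xbp1* KO cartilage, exon 2 of *Xbp1*, a transcription factor of the unfolded protein response, is removed by a Cre driven by the *Col2a1* promoter, so only cells that have expressed this promoter lose XBP1. Costal chondrocytes of pooled litters were freed with collagenase, and RNA pooled from 3 extractions was hybridized to 1 whole-genome 3' expression array per genotype. Since no genotype was repeated, the difference of a pair of arrays has no error and no test, and every fold below describes 2 pools.

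Values are linear signals as deposited. The median signal was close to 43.8 on each of the 4 arrays, and Pearson's r of log2 signals between arrays ran between 0.956 and 0.974 across probe sets, which are not independent. A gene is given by its brightest probe set, and signals are not compared between genes, since probe sets differ in their response. A signal under 5.52, the 25th percentile of all values, is called dim. Where 1 side of a pair was dim the fold is given as a lower bound against that percentile, and where both were dim no fold is given. Of the 37 members, 29 were over that percentile on all 4 arrays, 3 (*Mmp1a*, *Mmp8* and *Mmp20*) on 3 arrays and 5 (*Mmp1b*, *Mmp7*, *Mmp17*, *Adamts16* and *Adamts19*) on none.

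*Xbp1* had signals of 9548 in double mutant, 11403 in *Matn3* mutant, 7877 in XBP1 null and 8183 in wild type chondrocytes. Where its probe sets lie relative to exon 2 was not analysed, so this signal does not check the deletion. The signals of *Matn3* were 10572, 10462, 9945 and 10185 on these arrays. The 10 chondrocyte markers (*Col2a1*, *Acan* and others) were over the 25th percentile on every array, with summed signals of 113900, 107870, 106440 and 97895. The 11 endothelial markers did not stay level, with summed signals of 1399 in double mutant, 785 in *Matn3* mutant, 6214 in XBP1 null and 276 in wild type chondrocytes. Among them, *Pecam1* and *Tie1* were dim on every array but the XBP1 null one, with signals of 87.7 and 25.7 there. Others were not confined to that array. In the same order of arrays, *Cdh5* had 221, 146, 838 and 11.5 and *Aplnr* 360, 143, 1199 and 11.7. *Egfl7* had 160, 105, 689 and 179. On a list added after the values had been seen, Y-linked *Eif2s3y* had signals of 855 in double mutant, 0.03 in *Matn3* mutant, 665 in XBP1 null and 484 in wild type chondrocytes, and *Xist* 4101, 9718, 5262 and 7393. The *Matn3* mutant pool thus had next to no Y-linked signal, unlike the other pools, and the part of sex in the results was not tested. In comparisons with that pool Y-linked signal and genotype differ together, and their parts cannot be told apart.

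MMPs are zinc proteinases, made as inactive proenzymes, that cut collagens, proteoglycans and other matrix proteins. In the growth plate MMP13, MMP9 and MMP14 are known for the removal of cartilage during bone formation. ADAMTS proteinases carry thrombospondin repeats that bind matrix; some cut aggrecan and versican, others process procollagens or cut cartilage oligomeric matrix protein. TIMPs bind the active site of these enzymes, and TIMP3, which is itself held in the matrix, also blocks several ADAMTS and ADAM enzymes.

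Promoters of 23 of the 37 members were matched by gene ID in the RefSeq table of build GRCm38.p6, each from 250 bases before to 50 bases after the start of the gene. The motif TGAGTCA, which AP-1 binds, was searched on both strands, where its other strand reads TGACTCA. It was found in 7 of 23 members (30.4%), against 5.95% of the 27025 genes in the table. These 7 were *Mmp3*, *Mmp10*, *Mmp12*, *Mmp13*, *Mmp1a*, *Mmp1b* and *Mmp7*, all in a run of MMP genes on chromosome 9. Neighbours of 1 gene family are not independent. Of the motifs tied to the unfolded protein response, TGACGTGG (UPRE) was found in *Adamts3* and *Timp1*, 2 of 23 members (8.7%), against 0.714% of genes, and the ER stress response element (ERSE) in 0 of 23, against 0.137% of genes. No window of a member held more than 1 of these motifs. A match describes letters in this window and is not a binding site. The windows of *Mmp3*, *Mmp10* and *Mmp13* are shown because the signals of these 3 genes ran in the same order over the 4 arrays. Of the other members with the AP-1 motif, *Mmp12* and *Mmp1a* ran in other orders, and *Mmp1b* and *Mmp7* were dim on all arrays. The part of the motif in the signals was not tested. The windows shown all lie on the plus strand, at chr9:7445572-7445871, chr9:7502092-7502391 and chr9:7272264-7272563, and capitals mark the AP-1 motif.
Mmp3: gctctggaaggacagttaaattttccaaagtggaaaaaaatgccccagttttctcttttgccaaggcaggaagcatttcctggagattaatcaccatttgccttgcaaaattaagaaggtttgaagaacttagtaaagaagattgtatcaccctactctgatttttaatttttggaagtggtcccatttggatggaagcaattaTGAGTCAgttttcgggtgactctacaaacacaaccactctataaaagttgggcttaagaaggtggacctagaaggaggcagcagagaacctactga
Mmp10: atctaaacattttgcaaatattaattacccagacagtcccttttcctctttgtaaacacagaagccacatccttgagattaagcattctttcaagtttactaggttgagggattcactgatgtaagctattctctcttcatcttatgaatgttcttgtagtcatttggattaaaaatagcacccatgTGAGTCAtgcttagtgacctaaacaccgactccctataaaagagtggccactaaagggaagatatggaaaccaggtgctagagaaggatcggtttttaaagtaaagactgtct
Mmp13: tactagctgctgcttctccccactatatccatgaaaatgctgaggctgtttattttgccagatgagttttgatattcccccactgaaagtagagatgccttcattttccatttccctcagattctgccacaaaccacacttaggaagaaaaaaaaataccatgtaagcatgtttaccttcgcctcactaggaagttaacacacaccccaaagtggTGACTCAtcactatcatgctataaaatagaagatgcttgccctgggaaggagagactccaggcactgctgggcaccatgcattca
The motif begins 46 bases before the start of *Mmp3*, 63 before that of *Mmp10* and 35 before that of *Mmp13*, where it stands in the opposite orientation.

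The stromelysins cut proteoglycans and activate other MMPs. *Mmp3*, stromelysin-1, had signals of 1679 in double mutant, 4696 in *Matn3* mutant, 2688 in XBP1 null and 1783 in wild type chondrocytes. It was highest in *Matn3* mutant chondrocytes and nearly level between double mutant and wild type. This was 2.63-fold higher in *Matn3* mutant than in wild type and 2.80-fold lower in double mutant than in *Matn3* mutant chondrocytes. *Mmp10*, stromelysin-2, had signals of 125 in double mutant, 400 in *Matn3* mutant, 324 in XBP1 null and 210 in wild type chondrocytes. Its order was that of *Mmp3*, with the double mutant lowest. It was 1.91-fold higher in *Matn3* mutant than in wild type, 3.21-fold lower in double mutant than in *Matn3* mutant and 1.68-fold lower in double mutant than in wild type chondrocytes. XBP1 null chondrocytes had 1.51-fold more *Mmp3* signal and 1.54-fold more *Mmp10* signal than wild type, both just past the 1.5-fold used as a limit here. *Mmp11*, stromelysin-3, which differs from the others in being activated inside the cell, ran another way, with signals of 20.6 in double mutant, 11.4 in *Matn3* mutant, 55.4 in XBP1 null and 32.5 in wild type chondrocytes. It was lower with the *Matn3* mutation on both backgrounds, 2.84-fold in *Matn3* mutant against wild type and 2.68-fold in double mutant against XBP1 null.

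Of the collagenases, *Mmp13*, the enzyme of hypertrophic chondrocytes and osteoblasts that cuts type II collagen, had signals of 350 in double mutant, 687 in *Matn3* mutant, 515 in XBP1 null and 469 in wild type chondrocytes. It kept the order of *Mmp3* and *Mmp10* over the 4 arrays with smaller differences, 1.46-fold higher in *Matn3* mutant than in wild type and 1.96-fold lower in double mutant than in *Matn3* mutant. *Col10a1*, the collagen of hypertrophic chondrocytes, gave 223, 250, 1370 and 831 on the arrays in this order, and *Ihh*, a signal of prehypertrophic cells, 30.0, 32.8, 7.23 and 17.1. *Mmp1a* had signals of 9.57 in double mutant, 6.85 in *Matn3* mutant, 9.25 in XBP1 null and 5.36 in wild type chondrocytes, all near the dim range. *Mmp8*, the collagenase of neutrophils, was between 5.04 and 8.12, and *Mmp1b* was dim on all arrays, between 2.91 and 5.03.

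**Figure D1:**
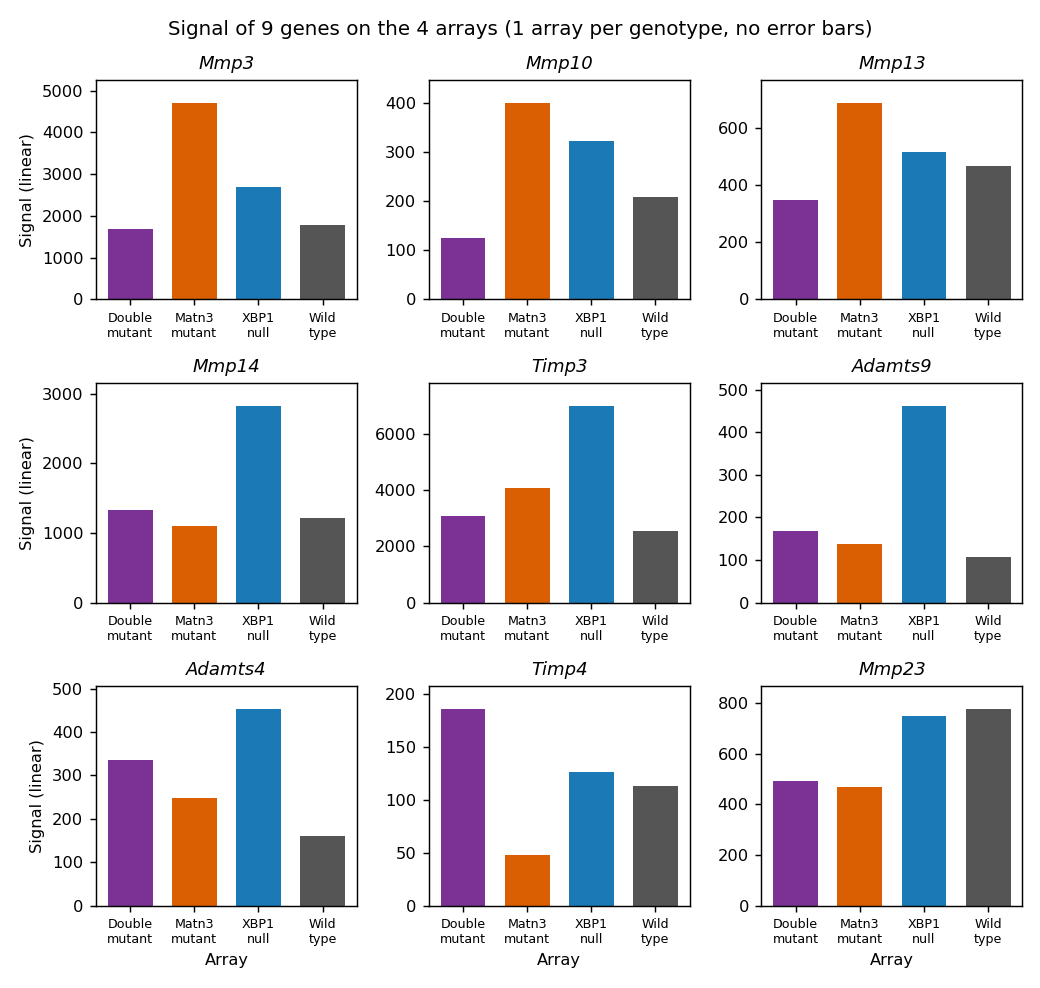
Linear signal (vertical axis, from 0) of 9 members on the 4 arrays, from left to right double mutant, *Matn3* mutant, XBP1 null and wild type; each bar is 1 array and carries no error. *Mmp3*, *Mmp10* and *Mmp13* are highest in *Matn3* mutant and lowest in double mutant chondrocytes, *Mmp14*, *Timp3*, *Adamts9* and *Adamts4* are highest in XBP1 null chondrocytes, *Timp4* is lowest at 48.3 in the *Matn3* mutant and *Mmp23* is lower on both arrays with the *Matn3* mutation.

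*Mmp3*, *Mmp10* and *Mmp13* lie close together. RefSeq lists 10 MMP genes in a row on chromosome 9, in the order *Mmp13*, *Mmp12*, *Mmp1b*, *Mmp3*, *Mmp1a*, *Mmp10*, *Mmp8*, *Mmp27*, *Mmp20* and *Mmp7*, with 3 other genes between them, and 9 of the 10 were measured. They were set apart from the other members after the values had been seen. In double mutant against *Matn3* mutant, 6 of these 9 had a signal over 1.5-fold lower and 0 higher, with a median log2 difference of -0.97. Of the other 28 members, 0 were lower and 5 higher, with a median of 0.21. Over all genes 9.03% were lower and 17.4% higher, and of the 1002 genes measured on chromosome 9, 9.18% were lower. In double mutant against XBP1 null, 3 of the 9 (33.3%) were lower and 0 higher, beside 10 of the other 28 (35.7%) lower and 4 higher, and 16.9% of all genes lower and 16.6% higher. In XBP1 null against wild type, 4 of the 9 were higher and 2 lower, beside 12 and 3 of the other 28, and 23.3% and 11.5% of all genes. In *Matn3* mutant against wild type, 3 were higher and 0 lower, beside 5 and 6 of the other 28, and 21.2% and 19.3% of all genes. The 6 lower in double mutant against *Matn3* mutant were *Mmp3*, *Mmp10*, *Mmp12*, *Mmp13*, *Mmp20* and *Mmp1b*, the last of them dim on both arrays. *Mmp12*, the macrophage elastase, had signals of 87.0 in double mutant, 227 in *Matn3* mutant, 98.8 in XBP1 null and 206 in wild type chondrocytes. It was low on both arrays without XBP1 and the only member lower on both backgrounds, 2.61-fold in double mutant against *Matn3* mutant and 2.08-fold in XBP1 null against wild type. *Mmp20*, the enamel proteinase, was dim in double mutant chondrocytes at 3.93, against 10.9 in *Matn3* mutant, 18.0 in XBP1 null and 11.2 in wild type chondrocytes. That was at least 1.97-fold lower than in *Matn3* mutant and at least 3.25-fold lower than in XBP1 null chondrocytes. Both arrays were over the 25th percentile for 4 of the 6, namely *Mmp3*, *Mmp10*, *Mmp12* and *Mmp13*. The 10 macrophage and osteoclast markers summed to 7748 in double mutant, 7232 in *Matn3* mutant, 9060 in XBP1 null and 3676 in wild type chondrocytes. Most of each sum came from *Cd14* and *Ctsk*, and single markers differed in their order. *Adgre1* was highest in double mutant and lowest in wild type chondrocytes, whereas *Lyz2* was lowest in *Matn3* mutant chondrocytes. The sum therefore does not measure macrophages alone, and their part in the *Mmp12* signal was not tested.

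**Figure D2:**
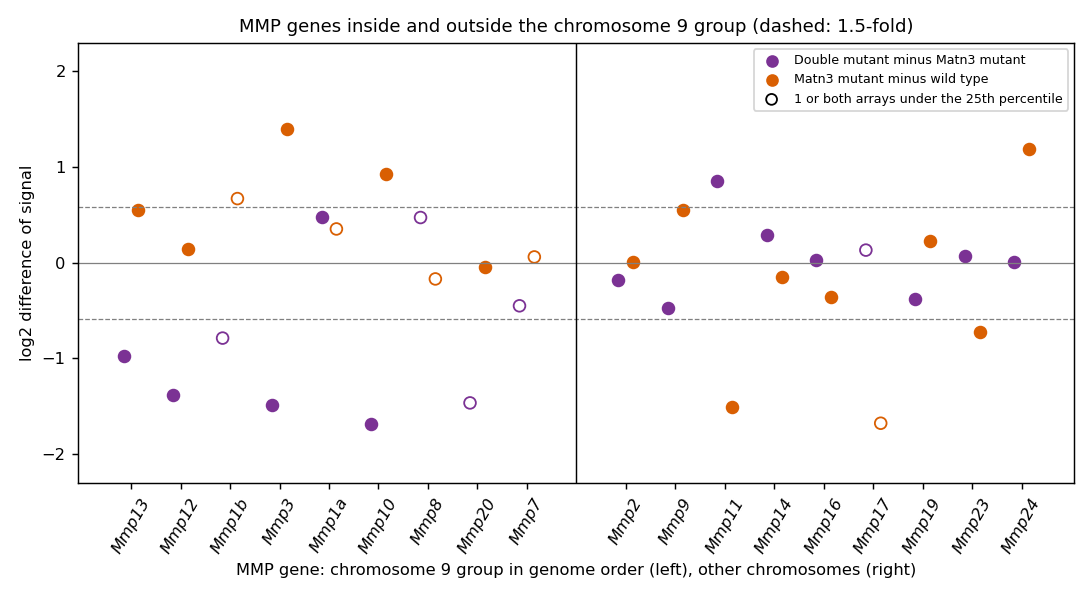
Log2 difference of signal (vertical axis) for the 18 MMP genes, the 9 of the chromosome 9 group in genome order on the left and the other 9 on the right; purple points are double mutant minus *Matn3* mutant, orange points *Matn3* mutant minus wild type, open where an array was dim, and dashed lines mark 1.5-fold. On the left 6 of 9 purple points lie under the lower line, and on the right 0 of 9 do.

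The gelatinases cut denatured collagen and type IV collagen. *Mmp2*, made by most mesenchymal cells, had signals of 4816 in double mutant, 5443 in *Matn3* mutant, 6157 in XBP1 null and 5430 in wild type chondrocytes and differed by at most 1.28-fold in any comparison. *Mmp9*, the gelatinase of osteoclasts and of cells at the cartilage-bone border, had signals of 96.8 in double mutant, 134 in *Matn3* mutant, 47.8 in XBP1 null and 92.1 in wild type chondrocytes. It was lowest in the XBP1 null, 1.93-fold under wild type, and 2.03-fold higher in double mutant than in XBP1 null. *Ctsk*, the collagenolytic cathepsin of osteoclasts, had signals of 2715, 1275, 1930 and 876 in that order of arrays, while *Acp5*, the acid phosphatase of these cells, had 148, 121, 209 and 303 and was highest in wild type.

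Of the membrane-type MMPs, *Mmp14*, which cuts collagen at the cell surface and activates MMP2 with the help of TIMP2, had signals of 1335 in double mutant, 1092 in *Matn3* mutant, 2816 in XBP1 null and 1209 in wild type chondrocytes. At this probe set the XBP1 null array stood alone, 2.33-fold over wild type, and the double mutant was 2.11-fold lower than the XBP1 null. The other *Mmp14* probe sets were also highest there, with 363, 256, 656 and 281 for one and 94.0, 41.4, 214 and 132 for the other. In the latter the *Matn3* mutant was also low, 3.19-fold under wild type, and the double mutant was 2.27-fold over the *Matn3* mutant. *Mmp16* had signals of 935, 914, 816 and 1176 and was highest in wild type, within 1.44-fold. Its other probe sets disagreed, since one gave 283, 424, 443 and 673 with the double mutant lowest, another 299, 214, 202 and 180 with the double mutant highest, and the dimmest 64.4, 84.9, 59.8 and 109. *Mmp24*, a neural form, had signals of 55.0 in double mutant, 54.8 in *Matn3* mutant, 41.5 in XBP1 null and 24.1 in wild type chondrocytes, so it was 2.28-fold higher in *Matn3* mutant than in wild type. A dimmer probe set of *Mmp24* gave 30.6, 14.7, 11.8 and 17.3 and did not share that difference. *Mmp17* was dim on all arrays.

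Among the remaining MMPs, *Mmp23* had signals of 491 in double mutant, 467 in *Matn3* mutant, 749 in XBP1 null and 775 in wild type chondrocytes. Both arrays with the *Matn3* mutation were lower, by 1.66-fold in *Matn3* mutant against wild type and 1.53-fold in double mutant against XBP1 null, while the loss of XBP1 left it within 1.05-fold. Its second probe set ran the same way, with 478, 391, 691 and 771. *Mmp19* had signals of 22.5 in double mutant, 29.2 in *Matn3* mutant, 48.5 in XBP1 null and 24.9 in wild type chondrocytes, highest in the XBP1 null by 1.95-fold over wild type. *Mmp7* was dim on all arrays.

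**Figure D3:**
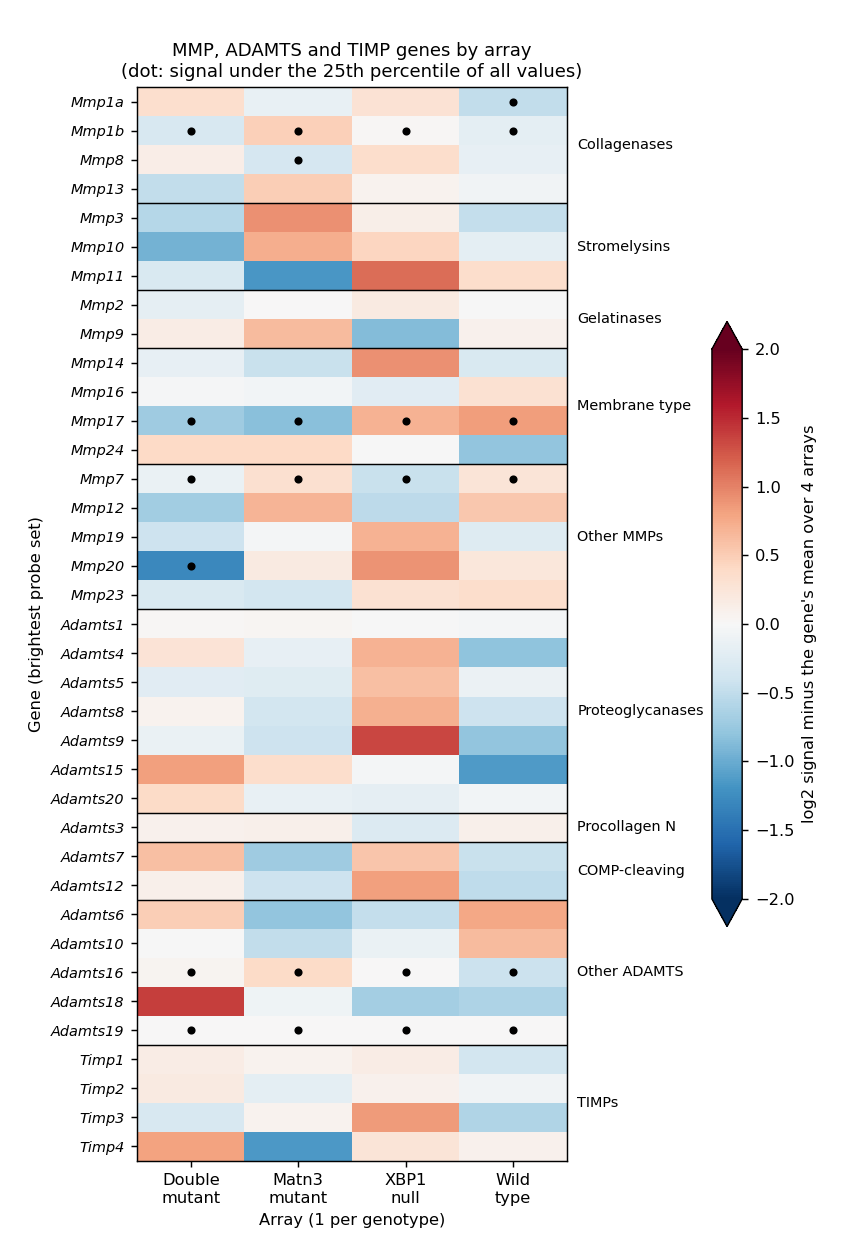
Log2 signal of the 37 members minus the mean of each over the 4 arrays (colour, red higher and blue lower, clipped at 2), with genes grouped by role down the page and arrays from left to right double mutant, *Matn3* mutant, XBP1 null and wild type; dots mark dim values. The XBP1 null column is highest for 13 of 37 members (35.1%, against 32.4% of all genes), among them *Mmp14*, *Timp3* and 4 of the 7 proteoglycanases.

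The ADAMTS proteoglycanases cut aggrecan and versican. In XBP1 null against wild type 5 of 7 had a signal over 1.5-fold higher and 0 lower, with a median log2 difference of 1.10, against 23.3% higher and 11.5% lower and a median of 0.09 over all genes. *Adamts9*, a proteoglycanase needed for normal vessels and heart, had signals of 168 in double mutant, 138 in *Matn3* mutant, 461 in XBP1 null and 107 in wild type chondrocytes, 4.32-fold higher in XBP1 null than in wild type. Its other probe sets disagreed, since one gave 84.3, 150.5, 236 and 92.4 and a dimmer one 16.9, 27.8, 10.3 and 22.4. *Adamts4*, aggrecanase-1, had signals of 335 in double mutant, 248 in *Matn3* mutant, 452 in XBP1 null and 160 in wild type chondrocytes. All mutant arrays were over wild type, by 2.83-fold in the XBP1 null, 2.10-fold in the double mutant and 1.55-fold in the *Matn3* mutant. A second *Adamts4* probe set gave 24.9, 64.5, 278 and 47.9, highest in the XBP1 null too but lowest in the double mutant. *Adamts5*, aggrecanase-2, the main aggrecanase of mouse cartilage, had signals of 138 in double mutant, 136 in *Matn3* mutant, 246 in XBP1 null and 149 in wild type chondrocytes. The XBP1 null stood apart by 1.65-fold over wild type, and all probe sets of *Adamts5* over the 25th percentile had their highest signal there. *Adamts8* had signals of 22.9, 16.9, 35.8 and 16.3, 2.20-fold higher in XBP1 null than in wild type. *Adamts15* was the only member over 1.5-fold higher with the *Matn3* mutation on both backgrounds, with signals of 30.1 in double mutant, 21.9 in *Matn3* mutant, 16.7 in XBP1 null and 7.79 in wild type chondrocytes. *Adamts1* stayed between 2504 and 2639, and *Adamts20* between 25.4 and 37.6.

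*Adamts3* processes procollagen II. Its signals were 2690 in double mutant, 2712 in *Matn3* mutant, 2100 in XBP1 null and 2715 in wild type chondrocytes, with the XBP1 null 1.29-fold under wild type. A dimmer second probe set gave 9.82, 6.72, 56.5 and 13.1, the other way round. *Adamts7* and *Adamts12* cut cartilage oligomeric matrix protein. *Adamts7* had signals of 33.3 in double mutant, 13.3 in *Matn3* mutant, 32.1 in XBP1 null and 16.1 in wild type chondrocytes. It was higher on both arrays without XBP1, by 2.51-fold against *Matn3* mutant and 1.99-fold against wild type. *Adamts12* had signals of 233 in double mutant, 164 in *Matn3* mutant, 384 in XBP1 null and 153 in wild type chondrocytes, 2.51-fold higher in XBP1 null than in wild type, whereas a dimmer probe set gave 14.6, 17.8, 8.33 and 14.0.

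Of the ADAMTS genes with less settled substrates, *Adamts6* and *Adamts10* form a related pair, and *Adamts10* acts on fibrillin microfibrils. *Adamts6* had signals of 64.8 in double mutant, 26.7 in *Matn3* mutant, 33.0 in XBP1 null and 78.2 in wild type chondrocytes. The single mutants were both low and the double mutant was near wild type, at 2.93-fold lower in *Matn3* mutant and 2.37-fold lower in XBP1 null against wild type. A second *Adamts6* probe set, dim in XBP1 null chondrocytes, gave 8.49 in double mutant, 10.2 in *Matn3* mutant, 4.99 in XBP1 null and 30.0 in wild type chondrocytes, so there the double mutant was low too. *Adamts10* had signals of 310 in double mutant, 222 in *Matn3* mutant, 282 in XBP1 null and 481 in wild type chondrocytes, so all mutant arrays were under wild type, by 1.55-fold, 2.16-fold and 1.70-fold. *Adamts18* had signals of 46.1 in double mutant, 16.8 in *Matn3* mutant, 11.1 in XBP1 null and 11.6 in wild type chondrocytes, 3.97-fold higher in double mutant than in wild type. *Adamts16* and *Adamts19* were dim on all arrays.

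Of the inhibitors, *Timp1* had signals of 10042 in double mutant, 9494 in *Matn3* mutant, 10071 in XBP1 null and 7035 in wild type chondrocytes. All mutant arrays were higher than wild type, by 1.35-fold to 1.43-fold, short of 1.5-fold. *Timp2* stayed within 1.29-fold in all comparisons by its brightest probe set, with signals of 6453, 4994, 6096 and 5431. Its other probe sets disagreed. One gave 6531, 4769, 5407 and 4244, 1.54-fold higher in double mutant than in wild type. Another gave 3068, 3626, 4087 and 4096, 1.34-fold lower in double mutant than in wild type. *Timp3* had signals of 3090 in double mutant, 4072 in *Matn3* mutant, 6975 in XBP1 null and 2535 in wild type chondrocytes. It was 2.75-fold higher in XBP1 null than in wild type, 1.61-fold higher in *Matn3* mutant than in wild type and 2.26-fold lower in double mutant than in XBP1 null, and all 4 of its probe sets were highest in the XBP1 null. The dimmest of them was nearly level between *Matn3* mutant and wild type, at 481 and 487. *Timp4* had signals of 186 in double mutant, 48.3 in *Matn3* mutant, 127 in XBP1 null and 113 in wild type chondrocytes. The *Matn3* mutant alone was low, 2.35-fold under wild type, and the double mutant was 3.85-fold over the *Matn3* mutant. The second *Timp4* probe set had the same order, with 51.7, 0.34, 14.2 and 13.6.

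**Figure D4:**
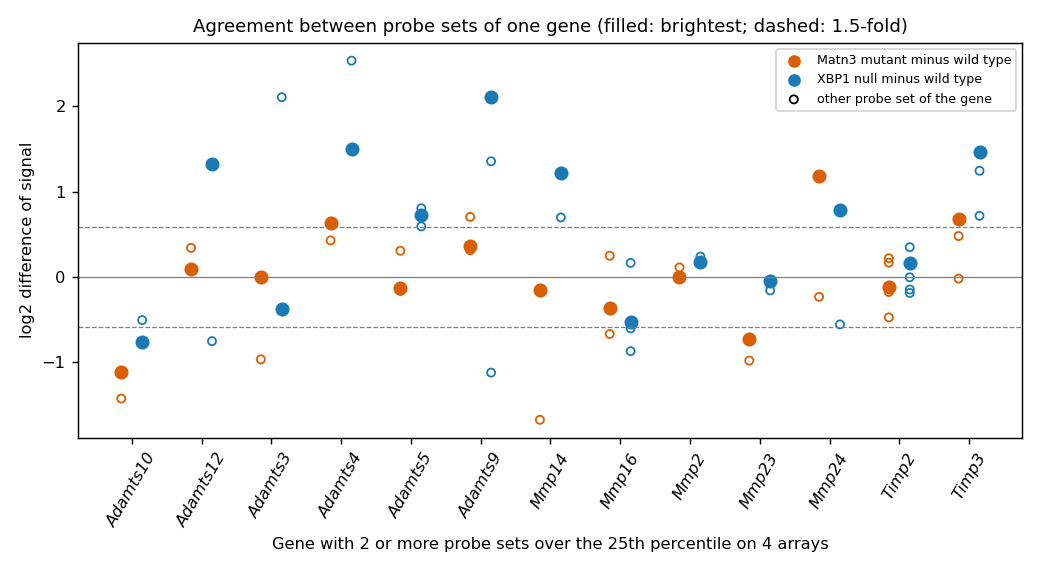
Log2 difference of signal (vertical axis) for each probe set of the 13 members with 2 or more probe sets over the 25th percentile on all arrays; orange is *Matn3* mutant minus wild type, blue XBP1 null minus wild type, filled points are the brightest probe set and dashed lines mark 1.5-fold. In XBP1 null against wild type the probe sets lie on the same side for 7 of the 13, among them *Timp3*, *Adamts5* and *Mmp14*. Those of *Adamts9*, *Adamts12*, *Adamts3*, *Mmp24*, *Mmp16* and *Timp2* do not.

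The *Matn3* mutant and wild type pools differed in the *Matn3* mutation and also in Y-linked signal, and the parts of these cannot be told apart. Here 8 of 37 members (21.6%) were over 1.5-fold higher and 6 (16.2%) lower, against 21.2% and 19.3% of all genes, and the median log2 difference was 0.06, against 0 over all genes. These shares are near those of all genes. Higher were *Mmp3*, *Mmp10*, *Mmp24*, *Adamts4*, *Adamts15*, *Timp3* and the dim *Mmp1b* and *Adamts16*. Lower were *Mmp11*, *Mmp23*, *Adamts6*, *Adamts10*, *Timp4* and the dim *Mmp17*. In the same comparison 8 of 11 endothelial markers were higher and 1 was lower, of the 7 osteoblast markers 1 was higher and 5 were lower, and of the 10 fibroblast and perichondrial markers 1 was higher and 4 were lower.

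In XBP1 null against wild type, 16 of 37 members (43.2%) were over 1.5-fold higher and 5 (13.5%) lower, against 23.3% and 11.5% of all genes. The median log2 difference was 0.44, against 0.09 over all genes, and was 0.18, against 0, with a floor at the 25th percentile. Beside the 5 proteoglycanases, the higher members were *Mmp3*, *Mmp10*, *Mmp11*, *Mmp14*, *Mmp19*, *Mmp20*, *Mmp24*, *Mmp1a*, *Adamts7*, *Adamts12* and *Timp3*, and the lower were *Mmp9*, *Mmp12*, *Adamts6*, *Adamts10* and the dim *Mmp7*. Markers of other cells moved in the same comparison. All 11 endothelial markers were over 1.5-fold higher in XBP1 null than in wild type chondrocytes, as were 6 of 7 osteoblast markers, 6 of 10 fibroblast and perichondrial markers and 6 of 10 macrophage and osteoclast markers, with 0 lower on these 4 lists. The summed fibroblast and perichondrial signal was 71220 in XBP1 null and 51612 in wild type chondrocytes. The part of these cells in the signals of the members was not tested, and in a pool more cells of a type and more RNA per cell cannot be told apart.

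The double mutant and *Matn3* mutant pools differed in XBP1 and also in Y-linked signal, and the parts of these cannot be told apart. In double mutant against *Matn3* mutant, 5 of 37 members (13.5%) were higher and 6 (16.2%) lower, against 17.4% and 9.03% of all genes. The lower ones were all of the chromosome 9 group given above. The higher ones were *Mmp11*, *Adamts6*, *Adamts7*, *Adamts18* and *Timp4*. Markers of other cells were higher in this comparison as well, with 9 of 11 endothelial, 7 of 10 fibroblast and perichondrial, 4 of 7 osteoblast and 6 of 8 muscle markers over 1.5-fold higher and 1 osteoblast marker lower, and their part in the signals of the members was not tested. Against the XBP1 null, the double mutant had 4 members (10.8%) higher and 13 (35.1%) lower, against 16.6% and 16.9% of all genes. The median log2 difference was -0.18, against 0 over all genes, and was 0 with a floor at the 25th percentile. Lower were *Mmp3*, *Mmp10*, *Mmp11*, *Mmp14*, *Mmp19*, *Mmp20*, *Mmp23*, *Adamts5*, *Adamts8*, *Adamts9*, *Adamts12*, *Timp3* and the dim *Mmp17*, and higher were *Mmp9*, *Adamts6*, *Adamts15* and *Adamts18*. All 11 endothelial markers were over 1.5-fold lower in double mutant than in XBP1 null chondrocytes. Against wild type, the double mutant had 9 members (24.3%) higher and 7 (18.9%) lower, against 24.1% and 12.1% of all genes. These comparisons share arrays, so their counts are not independent.

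**Figure D5:**
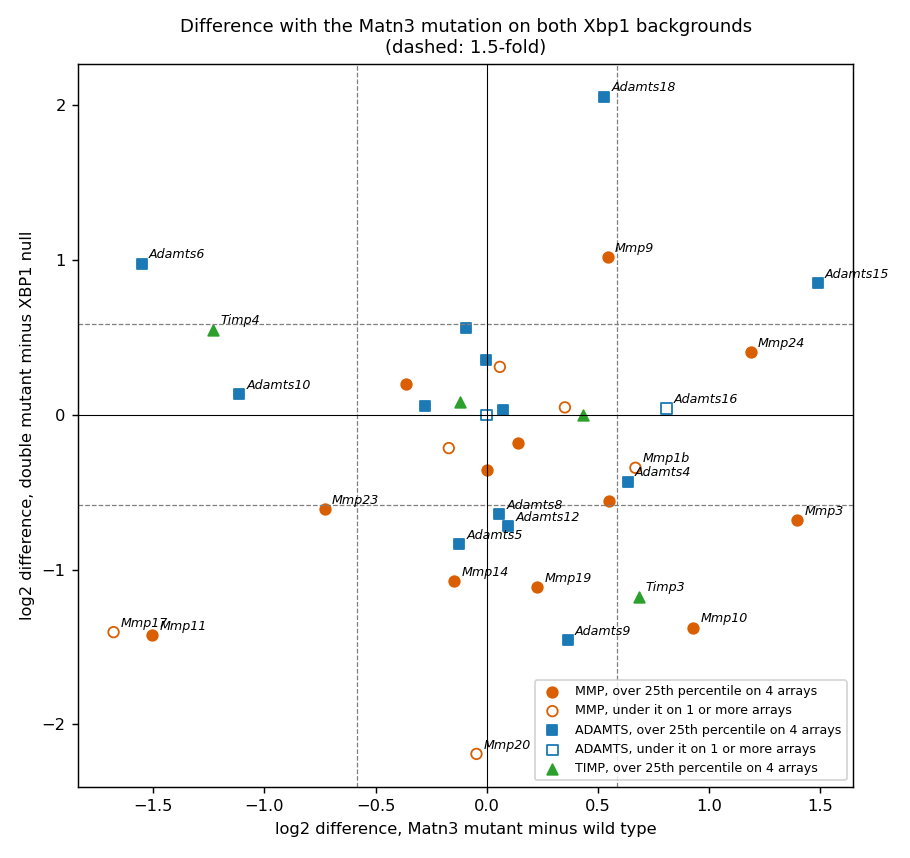
Log2 difference with the *Matn3* mutation for the 37 members, on the XBP1-intact background (horizontal axis, *Matn3* mutant minus wild type) and on the XBP1 null background (vertical axis, double mutant minus XBP1 null); orange circles are MMPs, blue squares ADAMTS genes and green triangles TIMPs, open where an array was dim, and dashed lines mark 1.5-fold. *Adamts15* lies past the lines at the upper right, *Mmp11* and *Mmp23* at the lower left, *Mmp3*, *Mmp10* and *Timp3* at the lower right and *Adamts6* at the upper left.

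The *Matn3* mutation went with a signal over 1.5-fold higher on both *Xbp1* backgrounds in 1 of 37 members (*Adamts15*), lower on both in 3 (*Mmp11*, *Mmp23* and the dim *Mmp17*) and opposite in 4 (*Mmp3*, *Mmp10*, *Timp3* and *Adamts6*). Over all genes 7.49% were higher on both, 5.47% lower on both and 6.75% opposite. The loss of XBP1 went with a higher signal on both *Matn3* backgrounds in 2 members (*Adamts7* and *Mmp11*), a lower one in 1 (*Mmp12*) and opposite ones in 4 (*Mmp3*, *Mmp10*, *Mmp20* and *Adamts6*), against 4.65%, 1.8% and 7.05% of all genes. An additive fit of mutation and XBP1 loss across all 45037 probe sets, by limma with 1 residual degree of freedom, called 0 of the 70 member probe sets for either effect after Benjamini-Hochberg adjustment, and 0 of all probe sets. At an unadjusted p under 0.05 there were 4 member probe sets for the mutation and 5 for XBP1 loss, against 7.51% and 4.56% of all probe sets. The lowest adjusted p of a member was 0.635 with the mutation as the effect and 0.819 with XBP1 loss. Among the brightest probe sets of members over the 25th percentile on all arrays, *Mmp23* had an unadjusted p of 0.02 for the mutation, at -0.67 ± 0.10 (log2, SE), and *Mmp12* one of 0.0213 for the loss of XBP1, at -1.22 ± 0.19. The fit takes the effects as additive, and whether they are was not tested.

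Genes that act with these proteinases were read from lists. Of 13 activators of MMP proenzymes and related proteinases, 4 were over 1.5-fold higher in *Matn3* mutant than in wild type. Among these 4, *Plg* and *Hpn* were dim on both arrays. In XBP1 null against wild type 3 were higher, and 0 were lower in either comparison. Over all genes 21.2% were higher and 19.3% lower in *Matn3* mutant, and 23.3% and 11.5% in XBP1 null. *Plau*, the urokinase that generates plasmin, had signals of 664 in double mutant, 1148 in *Matn3* mutant, 432 in XBP1 null and 530 in wild type chondrocytes, and its receptor *Plaur* 3034, 3375, 3216 and 1392. *Furin*, which activates the membrane-type MMPs and ADAMTS enzymes, stayed between 817 and 1047. Of 8 other inhibitors, *Reck*, which restrains MMP14 at the membrane, had signals of 3718, 2883, 2903 and 2551, and *Tfpi2*, an inhibitor of plasmin, of 536 in double mutant, 1147 in *Matn3* mutant, 838 in XBP1 null and 330 in wild type chondrocytes. Of 10 ADAM proteinases, 4 were higher and 2 lower in XBP1 null than in wild type, against 23.3% and 11.5% of all genes. Among the higher were *Adam19* with 605, 1182, 1291 and 395 and *Adam10* with 345, 300, 784 and 310. Among the lower was *Adam33* with 13.3, 17.9, 72.2 and 138. Of 17 matrix substrates, 5 (29.4%) were higher and 0 lower in XBP1 null against wild type, beside the same shares of all genes. *Vcan*, the substrate versican, had signals of 260 in double mutant, 166 in *Matn3* mutant, 749 in XBP1 null and 250 in wild type chondrocytes, while *Acan* stayed between 7475 and 10139.

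Cytokines that induce MMPs in other settings were also listed. Of 10, 7 were over 1.5-fold higher and 1 lower in *Matn3* mutant than in wild type, against 21.2% and 19.3% of all genes. In XBP1 null against wild type 6 were higher and 2 lower, against 23.3% and 11.5%. In double mutant against *Matn3* mutant 1 was higher and 5 were lower, against 17.4% and 9.03%. *Il1a*, dim on all arrays, is counted as lower in XBP1 null against wild type and in double mutant against *Matn3* mutant. *Inhba*, the activin A subunit, had signals of 2403 in double mutant, 6473 in *Matn3* mutant, 7578 in XBP1 null and 2775 in wild type chondrocytes. *Csf2* had 441, 1371, 1000 and 430, and *Il11* 1015, 1805, 2396 and 727. For these 3 genes both single mutants were over the double mutant and wild type, as they were for *Mmp3*, *Mmp10* and *Mmp13*. The same held for *Osm*, with 18.9, 35.5, 20.7 and 19.1. Unlike those MMPs, *Inhba* and *Il11* were highest in XBP1 null chondrocytes. A link between the cytokines and the MMPs was not tested. Others on the list, *Il6* and *Hbegf* among them, ran differently. *Il1b* had signals of 59.6 in double mutant, 30.2 in *Matn3* mutant, 19.9 in XBP1 null and 5.22 in wild type chondrocytes, *Tnf* 39.9, 52.9, 19.0 and 129, and *Lif* 2069, 2481, 1712 and 1492. Of 10 AP-1 genes and other regulators, 2 (20%) were higher and 3 (30%) lower in *Matn3* mutant than in wild type. Over all genes this was 21.2% and 19.3%. *Fos* stayed between 10815 and 14616 and *Jun* between 13511 and 16732, while *Ets1* had signals of 3277, 3753, 2750 and 1308 and *Fosl2* of 3180, 2110, 2871 and 1371 in double mutant, *Matn3* mutant, XBP1 null and wild type chondrocytes.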

How the data were processed

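The authors hybridized RNA of costal chondrocytes, pooled from 3 extractions per genotype, to 1 Affymetrix Mouse430_2 array each. The deposited values are linear intensities (signals) of 45037 probe sets. Their methods name Microarray Suite 5 for control hybridizations and PPLR with a fold change of 1.5. The sources used here do not say how probes were combined into signals or how arrays were scaled. PPLR needs errors of single probes and was not applied here.

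Values under 1 (8.36% to 10.9% of each array) were raised to 1 before log2 was taken, with no scaling. A compressed or background-subtracted scale would change the folds of low signals most. Probe sets were named through the platform annotation. 34945 name 1 gene, 932 several and 9160 none, and those naming several or none were left out for genes. Each gene took its probe set of highest mean log2, and 19 members had more than 1. Members and genes over 1.5-fold were counted in 5 comparisons. The additive fit used limma 3.58.1 in R 4.3.3, with eBayes and a trend, and Benjamini-Hochberg adjustment with a threshold of 0.05. On data simulated with additive effects, only its median estimates were checked against the effects put in. That check cannot show whether the effects here are additive. The number of arrays limits the precision, and the spread between animals is not measured. Promoters came from RefSeq (GRCm38.p6). Python 3.11.15, numpy 2.4.6, pandas 2.3.3 and matplotlib 3.10.9 were used.

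Members and gene lists were chosen with earlier results of these data known. Named in full were *Mmp3*, *Mmp10*, *Mmp13*, *Mmp14*, members the study names, the TIMPs, members with mean log2 over the 75th percentile, and the 5 most higher and 5 most lower past 1.5-fold in each comparison. The other members are named with their range or values. Genes of other lists were named without a fixed number and are not always those with the largest differences. *Adamts5* and *Adamts8*, further probe sets and *Mmp19* were given in full after their values were seen. The sex list was added after the values were seen. Alternatives were centring, quantile normalization, a floor at the 25th percentile, only genes over that percentile, the median over probe sets, no cross-hybridizing probe sets by suffix, a 2-fold threshold, and for the fit no trend or only the brighter probe sets.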

Additional observations from a re-analysis of the deposited data

Results flagged for a closer look

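For 5 members the difference with the *Matn3* mutation, with the loss of XBP1 or with both was over 1.5-fold in opposite directions on the 2 backgrounds, and 4 of them were over the 25th percentile on all arrays. Each value below is the log2 difference of the double mutant from the value that adding both single effects to wild type gives. With 1 array per genotype none of these differences could be tested. *Mmp10* had -2.31, with a log2 difference for the mutation of -1.38 on the XBP1 null and 0.93 on the XBP1-intact background, and for the loss of XBP1 of -1.68 on the *Matn3* mutant and 0.62 on the *Matn3* wild type background. *Mmp3* had -2.08, with -0.68 and 1.40 for the mutation and -1.48 and 0.59 for the loss of XBP1 in the same order of backgrounds. *Timp3* had -1.86, with -1.17 on the XBP1 null and 0.68 on the XBP1-intact background for the mutation. Its other probe sets gave 0.67, 0.48 and -0.02 on the XBP1-intact background, so not all passed 1.5-fold there. *Adamts6* had 2.53 and ran the other way, with 0.98 and -1.55 with the *Matn3* mutation and 1.28 and -1.25 for the loss of XBP1. Its second probe set gave 8.49 in double mutant, 10.2 in *Matn3* mutant, 4.99 in XBP1 null and 30.0 in wild type chondrocytes, where the loss of XBP1 went with a lower signal on both backgrounds. *Mmp20*, the fifth member, had -2.15, with -1.47 and 0.68 for the loss of XBP1, but was dim in double mutant chondrocytes. Over all genes 6.75% were opposite for the mutation and 7.05% for XBP1 loss.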

How the results depend on the processing

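No paired analysis was possible because each genotype has 1 array, and no replicate could be left out. Centring, quantile normalization, the floor at the 25th percentile, the limit to genes over it and leaving out cross-hybridizing probe sets each kept all counts of members within 1.5 times those given. With a 2-fold threshold 7 of 10 counts moved further, to 3 members higher in *Matn3* mutant against wild type, 7 higher and 2 lower in XBP1 null against wild type, 2 higher and 8 lower in double mutant against XBP1 null, and 5 higher and 3 lower in double mutant against wild type; a stricter threshold calls fewer genes by construction. With the median over probe sets, 4 members were higher in *Matn3* mutant against wild type, against 20.4% of all genes. In that setting 8 of 130 log2 differences of named members fell to under 1.5-fold and 6 rose past it. It also turned the sign of 9, counting only those past 1.5-fold before or after. They became 0.05 for *Adamts12* and -1.08 for *Adamts3* in double mutant against XBP1 null, 0.63 for *Adamts18*, 0.87 for *Adamts3* and -0.56 for *Mmp24* in XBP1 null against wild type, -0.23 for *Mmp24* in *Matn3* mutant against wild type, -0.71 for *Adamts9* in double mutant against *Matn3* mutant, and -0.13 for *Adamts9* and -0.79 for *Mmp9* in double mutant against wild type. Dimmer probe sets enter that median. In the additive limma fit no alternative called a member probe set. The fit on the brighter 22519 probe sets called 13 for the mutation, none a member. At an unadjusted p under 0.05 it had 3 of 40 member probe sets for the mutation, against 8.3% of all 22519. For the loss of XBP1 it had 9 of 40, against 6.37%. Probe sets of the same gene are counted separately here. The median log2 difference of the members in XBP1 null against wild type, 0.44 as given, was 0.18 with the floor at the 25th percentile, 0.25 with quantile normalization (0 over all genes with either) and 0.29 with the median over probe sets. In double mutant against XBP1 null it was 0 with the floor and -0.09 with quantile normalization, against -0.18 as given. Signals of 8 members were dim on 1 array or more, so their differences are bounds or unmeasured.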
